A study of Mus musculus with 30 samples.

Results

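The genes described here code for 9 proteins of the mitochondrial tricarboxylic acid (TCA) cycle and its isocitrate dehydrogenases: CS, IDH2, IDH3A, IDH3B, IDH3G, OGDH, SUCLG1, FH1 and MDH2. They were taken by symbol from a table of 21073 genes measured by RNA-seq in mouse extensor digitorum longus (EDL), a fast muscle of the lower hind limb. All 9 were found (FH1 is listed as Fh1), and all 9 passed the filter on low values in every comparison. Female wild-type SJL/J mice were in 3 groups of 5 on day 14 and 3 separate groups of 5 on day 40. Mice with experimental autoimmune encephalomyelitis (EAE, an animal model of multiple sclerosis) had received a peptide of the myelin proteolipid protein (PLP) in complete Freund's adjuvant, with no pertussis toxin. OVA mice had received ovalbumin in the same adjuvant, and Ctrl mice were not immunized. The study places the peak of disease on day 14 and chronic remission on day 40. The labels name no transgene or drug in any group, and ages of the mice were not given in the sources used here. Each sample was taken as 1 mouse, which the labels do not state outright, and p-values measure only the spread between these samples. On each day the comparison with Ctrl and the comparison with OVA share the EAE mice.

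The TCA cycle runs in the mitochondrial matrix and oxidizes the acetyl group of acetyl-CoA to carbon dioxide, passing electrons to NADH and FADH2 for the respiratory chain. Isocitrate is oxidized to 2-oxoglutarate by different enzymes in the same compartment: IDH3, an NAD-linked complex of alpha, beta and gamma subunits, serves the cycle itself, whereas IDH2 is NADP-linked and is a source of mitochondrial NADPH. In skeletal muscle the activity of citrate synthase is commonly taken as a measure of mitochondrial content.

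The genes lie on different chromosomes of the GRCm38 assembly. IDH2 is at chr7:80094845-80118608, MDH2 at chr5:135778649-135790386, CS at chr10:128337727-128362482 and IDH3A at chr9:54586511-54604662. Of the remaining genes, IDH3B is at chr2:130279309-130284451, IDH3G at chrX:73778963-73786897, OGDH at chr11:6291597-6359094, SUCLG1 at chr6:73248505-73276907 and FH1 at chr1:175601378-175625635. Values are RPKM, read counts divided by exon length and library total, and being per length they can be compared between genes.

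Estimated depth was about 18200000 to 31700000 reads per library, and the 9 genes had 1134 to 36404 estimated reads in each mouse, so that counting error was small beside the differences between mice. The fast fibre myosin MYH4 averaged 5149.9 to 7262 RPKM over the 6 groups and the slow fibre myosin MYH7 90.2 to 127 RPKM, as the label of a fast muscle has it. Libraries differed in the balance of long and short transcripts, measured as the median log2 deviation from the day's mean of genes with at least 4465 exon bases minus that of genes with at most 1843. In 4 mice this was beyond 0.5 in size: -0.78 in Ctrl mouse 1 and -0.62 in OVA mouse 1 of day 14, 0.53 in EAE mouse 2 of day 14 and 0.57 in Ctrl mouse 3 of day 40. On day 14, some markers of fibre types and of other cells were also called between EAE and Ctrl, by the rule given below. Those called lower were 4 of 4 tested erythrocyte, 6 of 7 fibroblast, 5 of 8 macrophage, 3 of 8 endothelial and 1 of 4 adipocyte markers. Of the fibre markers, 4 of 10 slow and 2 of 10 fast ones were called lower. The share over all genes was 11.8%. The 4 slow fibre markers, MYL3, TNNC1, TPM3 and MYL2, from -1.67 to -0.79 on the log2 scale, were called lower against OVA too. Of the 10 slow fibre markers 3 were higher than in Ctrl, by up to 0.46, and 2 higher than in OVA. In each comparison 1 of these was at an adjusted p under 0.05 (limma). The summed slow fibre markers were 1988 to 3223 RPKM in Ctrl, 2052 to 3142 RPKM in OVA and 1289 to 2112 RPKM in EAE mice. For the fast fibre markers the sums were 77751 to 119553 RPKM in Ctrl, 71011 to 107402 RPKM in OVA and 55186 to 73158.5 RPKM in EAE mice. Of 8 listed neutrophil markers, 5 passed the filter on low values. All 5 were called higher against Ctrl in EAE and also in OVA mice. The filter asks for a mean above 3 RPKM in only 1 compared group. All 8 together summed to 3.79 to 10.7 RPKM in Ctrl, so markers could pass through the group where they were high. The count is therefore no test of the list. Over all genes 14.6% were called higher in EAE and 0.142% in either direction in OVA. In EAE against OVA 1 of 5 was called higher, beside 11.0% of all genes. The summed fibroblast markers were 889 to 2030 RPKM in Ctrl and 319 to 518 RPKM in EAE mice. The part of these in the results below was not tested. In muscle RNA, fewer cells of a type and less RNA per cell cannot be told apart.

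On day 14 all 9 TCA cycle genes had lower mean levels in EAE than in unimmunized muscle, with IDH2 and MDH2 showing the largest differences. The median log2 fold change over the 9 was -0.38 beside 0.11 over all 8771 genes tested. A gene was called at an adjusted p below 0.05 (limma, Benjamini-Hochberg over all genes tested) and a fold change above 1.5. By this rule 2 of 9 were called lower, IDH2 and MDH2, where 11.8% of all genes were. By adjusted p alone 7 of 9 were lower, with a background of 19.0%. The values of the EAE and Ctrl mice did not overlap for 3 of 9, CS, IDH2 and MDH2, against 11.0% of all genes.

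**Figure D1:**
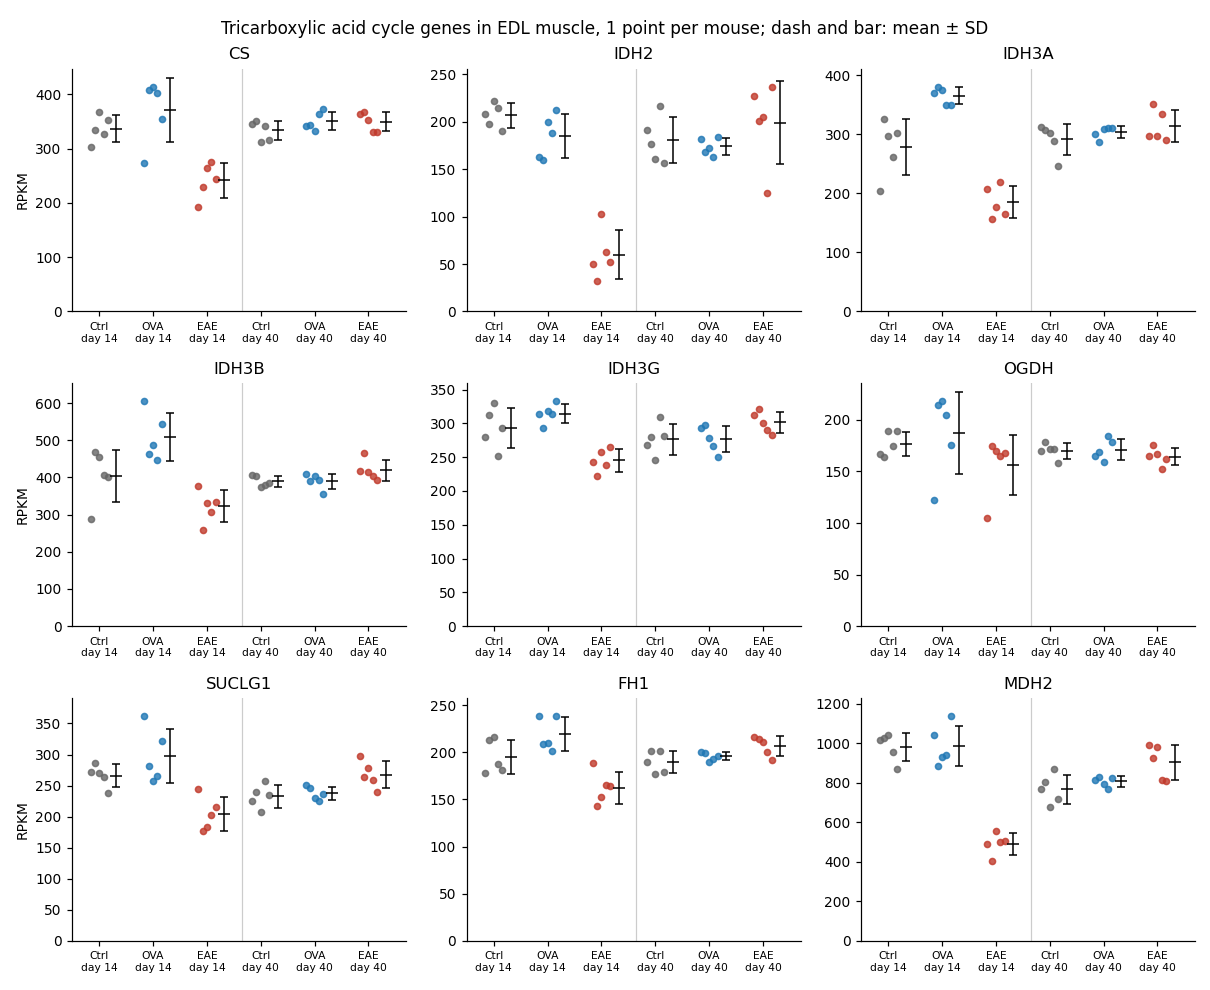
RPKM of each of the 9 genes (vertical axes, from 0) in the 6 groups of 5 mice (horizontal axes), with 1 point per mouse and the mean ± SD as a dash and bar. On day 14 every EAE mouse (red) lies below every Ctrl (grey) and OVA mouse (blue) for IDH2 and MDH2, whereas on day 40 the 3 groups overlap for all 9 genes.

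IDH2 showed the deepest fall of the 9. On day 14 it was at 209, 198, 222, 215 and 190.5 RPKM in the Ctrl mice, 163, 159.6, 200.2, 188 and 213 RPKM in the OVA mice and 50.2, 32.6, 102, 63.0 and 52.0 RPKM in the EAE mice. Every EAE mouse was below every mouse of both other groups, and EAE mouse 3, at 102 RPKM, stood above the other EAE mice. The means were 207 ± 12.9 RPKM in Ctrl, 185 ± 23.1 RPKM in OVA and 60.0 ± 26.0 RPKM in EAE (SD, n = 5 each). The fold change against Ctrl on the log2(RPKM + 0.1) scale was -1.88 (SE 0.21, limma adjusted p = 7.5e-06), or 3.68-fold lower. Against OVA it was -1.71 (SE 0.21, limma adjusted p = 2.03e-05), or 3.28-fold lower.

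MDH2, the mitochondrial malate dehydrogenase that regenerates oxaloacetate in the last step of the cycle, fell to about the same extent against both controls. It was at 1017, 1027, 1040.5, 954 and 873 RPKM in the Ctrl mice, 1042, 886, 933, 939 and 1140.3 RPKM in the OVA mice and 492, 402, 554, 499 and 507 RPKM in the EAE mice. The highest EAE mouse was well under the lowest control mouse. The means were 982 ± 69.5 RPKM in Ctrl, 988 ± 102 RPKM in OVA and 491 ± 55.3 RPKM in EAE (SD, n = 5 each). MDH2 was 2.01-fold lower than in Ctrl (log2 fold change -1.01, SE 0.11, limma adjusted p = 6.39e-06) and 2.02-fold lower than in OVA (log2 fold change -1.01, SE 0.11, limma adjusted p = 8.47e-06).

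CS, citrate synthase, joins acetyl-CoA to oxaloacetate at the entry to the cycle. On day 14 it was at 303, 335, 366, 326 and 353 RPKM in the Ctrl mice, 274, 408, 414, 402 and 354 RPKM in the OVA mice and 193, 229, 265, 275 and 244 RPKM in the EAE mice. All EAE mice were below all Ctrl mice, but OVA mouse 1, at 274 RPKM, lay just under the highest EAE mouse, and EAE mouse 1 was the lowest of all 15. The log2 fold change was -0.49 against Ctrl (SE 0.13, limma adjusted p = 0.00626), under the 1.5-fold limit, and -0.61 against OVA (SE 0.13, limma adjusted p = 0.00173), just past it. Without EAE mouse 1 the latter was -0.53 and no longer past the fold limit, and neither was it without any of OVA mice 2, 3 and 4 (-0.57 to -0.58). The closely related gene CSL was at 0.247 to 0.628 RPKM in group means.

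All 3 subunits of the NAD-linked isocitrate dehydrogenase were lower than in OVA at an adjusted p under 0.05, and 2 of them, IDH3A and IDH3B, were also past the fold limit. IDH3A, the catalytic alpha subunit, was at 203, 326, 297, 262 and 302 RPKM in Ctrl, 369, 381, 375, 350.2 and 349.8 RPKM in OVA and 207, 157, 177, 219 and 166 RPKM in EAE mice of day 14. EAE and OVA mice did not overlap, whereas Ctrl mouse 1, at 203 RPKM, lay within the range of the EAE mice. The log2 fold change was -0.58 against Ctrl (SE 0.13, limma adjusted p = 0.00207), which missed the 1.5-fold limit. Without Ctrl mouse 1 it was -0.69, past the limit, and without Ctrl mouse 4, EAE mouse 1 or EAE mouse 4 it was -0.60 to -0.64. Against OVA it was -0.99 (SE 0.13, limma adjusted p = 3.52e-05).

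IDH3B, a regulatory subunit, was at 289, 469, 455, 405 and 401 RPKM in Ctrl, 605, 463, 486, 447 and 542 RPKM in OVA and 378, 259.5, 332, 308 and 335 RPKM in EAE mice. Ctrl mouse 1 was again low, below 4 of the 5 EAE mice, while no EAE mouse reached the OVA mice. The log2 fold change of -0.32 against Ctrl did not pass (SE 0.14, limma adjusted p = 0.0785), and that of -0.66 against OVA did (SE 0.14, limma adjusted p = 0.00203). Without EAE mouse 2 the latter was -0.58 and without the 4 mice of unbalanced transcript length -0.52, both under the fold limit. IDH3G, the other regulatory subunit, had means of 293 ± 29.8 RPKM in Ctrl, 314 ± 14.3 RPKM in OVA and 245 ± 16.7 RPKM in EAE (SD, n = 5 each), with log2 fold changes of -0.25 and -0.36 that passed on adjusted p only (limma adjusted p = 0.0368 and 0.00734).

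SUCLG1, FH1 and OGDH, those of the 9 that act between 2-oxoglutarate and malate, stayed under the fold limit against both controls. SUCLG1, the alpha subunit of succinyl-CoA ligase, had means of 266 ± 18.0, 298 ± 44.0 and 205 ± 27.5 RPKM in Ctrl, OVA and EAE (SD, n = 5 each). Its log2 fold changes of -0.38 against Ctrl and -0.54 against OVA passed on adjusted p (limma, 0.0148 and 0.00231) but not on the fold limit, which the latter did pass without OVA mouse 3 or EAE mouse 1 (-0.59 and -0.61). FH1, fumarate hydratase, had means of 195 ± 18.3, 219 ± 17.8 and 163 ± 16.9 RPKM in the same order (SD, n = 5 each). Like SUCLG1 it passed on adjusted p only, at -0.27 against Ctrl and -0.43 against OVA (limma adjusted p = 0.0419 and 0.00352).

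OGDH, the first enzyme of the 2-oxoglutarate dehydrogenase complex, passed in neither comparison. It was at 167, 164, 189, 175 and 189 RPKM in Ctrl, 122, 215, 218, 204 and 176 RPKM in OVA and 105, 174, 170.0, 165 and 168 RPKM in EAE mice of day 14. EAE mouse 1 was far below the other EAE mice, which lay within the range of Ctrl, and OVA mouse 1 was far below the other OVA mice. The log2 fold change was -0.20 against Ctrl, with a 95% confidence interval of -0.55 to 0.16 (limma adjusted p = 0.339), and -0.25 against OVA, with an interval of -0.60 to 0.10 (limma adjusted p = 0.243). Both intervals reach past 0 on one side and to about the 1.5-fold limit on the other.

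Against OVA, the adjuvant control, all 9 genes again had lower mean levels in EAE on day 14, and 5 of 9 were called: CS, IDH2, IDH3A, IDH3B and MDH2. The background was 9.28% of 8674 genes called lower. By adjusted p alone 8 of 9 were lower (background 15.3%), all but OGDH. For 7 of 9 the groups did not overlap (background 8.20%), all but CS and OGDH. The median log2 fold change of the 9 was -0.61, beside 0.11 over all genes. With quantile normalization 3 of 9 were called, and CS and IDH3B were not among them.

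**Figure D2:**
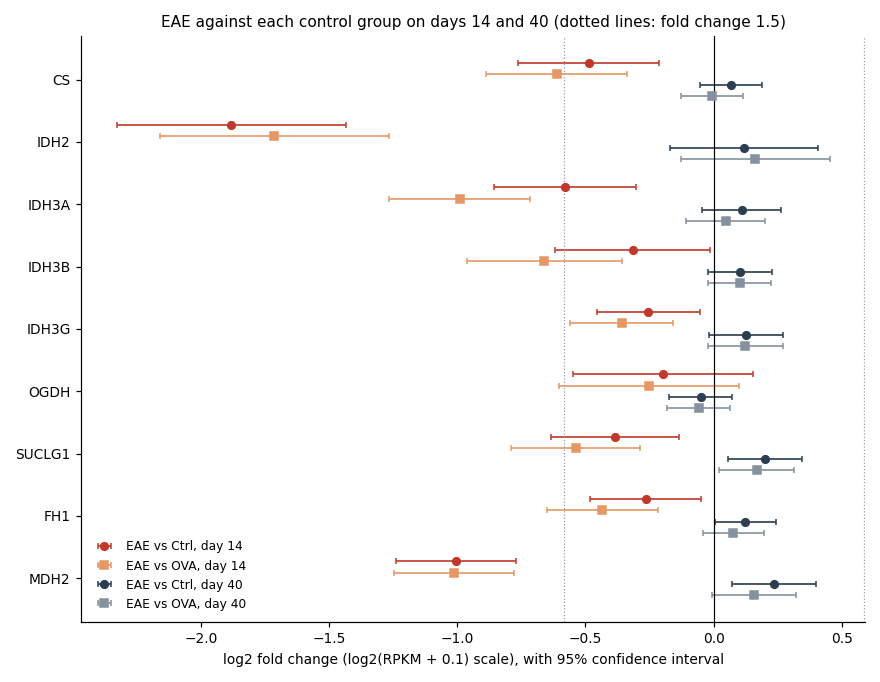
Log2 fold change of EAE against Ctrl (circles) and against OVA (squares) for each gene, on day 14 (red and orange) and day 40 (dark and light grey), with 95% confidence intervals on the log2(RPKM + 0.1) scale. All 18 values of day 14 are negative, from -1.88 for IDH2 to -0.20 for OGDH, and the day 40 values lie between -0.06 and 0.24.

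Immunization with OVA in adjuvant moved none of the 9 past the threshold on day 14. None of 9 was called against Ctrl, with 2 of 9 (IDH3A and IDH3B) and 821 of 8471 genes at an unadjusted p under 0.05 and a background of 0.142% called in either direction (limma). The nearest was IDH3A, at 365 ± 14.4 RPKM in OVA and 278 ± 47.5 RPKM in Ctrl (SD, n = 5 each). Its OVA mice were all above its Ctrl mice, the only such case among the 9 (background 1.09% not overlapping and higher), with a log2 difference of 0.41 (SE 0.13, limma adjusted p = 0.324). IDH3B was at 0.34 (SE 0.14, limma adjusted p = 0.445). MDH2 differed by 0.01, with an interval of -0.23 to 0.24, and IDH2 by -0.17, with an interval of -0.62 to 0.28.

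On day 40, none of the 9 genes was called in any comparison. For EAE against Ctrl the background was 0.460% of 8691 genes called, for EAE against OVA 0.209% of 8598 and for OVA against Ctrl 0.00% of 8706 (limma, with 2423, 1500 and 272 genes at an unadjusted p under 0.05, and 3, 1 and 0 of the 9). No gene of the 9 had groups that did not overlap, with backgrounds of 5.22%, 5.87% and 0.678% in the same order. In EAE against Ctrl 8 of 9 values were above 0, with a median of 0.12 beside -0.05 over all genes, whereas after quantile normalization 5 of 9 were below 0 and the median was -0.01.

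MDH2 was at 768, 803, 679, 871 and 717 RPKM in the Ctrl mice, 815, 832, 793, 769 and 826 RPKM in the OVA mice and 990.3, 924, 980.5, 816 and 808 RPKM in the EAE mice of day 40. Of the EAE mice, 3 were above every Ctrl mouse and the other two lay within the Ctrl range, and the log2 difference from Ctrl was 0.24 (SE 0.08, limma adjusted p = 0.0838). IDH2 was at 192, 177, 161, 216 and 157 RPKM in Ctrl, 182, 168, 173, 163 and 184 RPKM in OVA and 227, 201, 205, 125 and 237 RPKM in EAE mice. EAE mouse 4 was the lowest of the 15 at 125 RPKM, while 2 other EAE mice were the highest, and the difference from Ctrl of 0.12 had an interval of -0.17 to 0.41. SUCLG1 was at 268 ± 21.7 RPKM in EAE and 233 ± 18.5 RPKM in Ctrl (SD, n = 5 each, limma adjusted p = 0.0931). By limma p-value of EAE against Ctrl, MDH2 ranked 742 and SUCLG1 920 among 8691 genes. CS was at 333 ± 17.3, 350.5 ± 16.7 and 349 ± 17.3 RPKM in Ctrl, OVA and EAE, and the interval of EAE against Ctrl was -0.05 to 0.19.

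The days were compared through the change of the EAE effect, the log2 fold change on day 40 minus that on day 14, in 1 model of all 30 mice. Against Ctrl it was positive for all 9 genes and was called higher for 4 of 9, IDH2, IDH3A, SUCLG1 and MDH2, with a background of 11.7% of 9013 genes; by adjusted p alone it was higher for 8 of 9 (background 16.5%). IDH2 had the largest change of the 9, 2.00 (SE 0.26, limma adjusted p = 1.48e-06), and MDH2 the next, 1.24 (SE 0.13, limma adjusted p = 5.6e-08). The value of SUCLG1, 0.59, was just past the fold limit and fell below it, to between 0.53 and 0.58, without any 1 of 10 mice: Ctrl mice 1, 2 and 3 and EAE mice 2, 3 and 4 of day 14, and Ctrl mice 1 and 3 and EAE mice 1 and 3 of day 40. CS, at 0.56, passed without Ctrl mouse 1, EAE mouse 3 or EAE mouse 4 of day 14 (0.59 to 0.61). Against OVA it was called higher for 6 of 9, these 4 genes with CS and IDH3B, where CS missed the fold limit without any of OVA mice 2, 3 and 4 or EAE mouse 1 of day 14 (0.53 to 0.57, background of calls 8.16%), and by adjusted p alone for 8 of 9 (background 11.1%). OGDH passed in neither, at 0.15 against Ctrl and 0.19 against OVA (limma adjusted p = 0.51 and 0.408). The mice of the 2 days are different animals, and MDH2 in Ctrl itself was at 982 ± 69.5 RPKM on day 14 and 768 ± 74.8 RPKM on day 40 (SD, n = 5 each), a difference that was not tested.

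Ratios within a mouse, which do not depend on the scaling of its library, were used to ask whether the isocitrate dehydrogenase genes changed together. IDH2/IDH3A was 1.03, 0.607, 0.748, 0.82 and 0.632 in the Ctrl mice of day 14 and 0.242, 0.208, 0.58, 0.288 and 0.314 in the EAE mice. All EAE mice were below all Ctrl mice, EAE mouse 3 only by a little. The log2 difference was -1.30 (two-sided exact permutation test, p = 0.00794, the smallest that 5 against 5 mice allow, adjusted over 18 ratio tests p = 0.0476), so IDH2 was lower relative to IDH3A. In the OVA mice the ratio was 0.442, 0.419, 0.533, 0.538 and 0.608, with a mean between those of the other groups. The log2 difference of OVA from Ctrl of -0.58 did not pass after adjustment (exact permutation p = 0.0159, adjusted p = 0.0714), and that of EAE from OVA of -0.72 did not either (exact permutation p = 0.0397, adjusted p = 0.119).

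Among the IDH3 subunits, IDH3G/IDH3A was 1.38, 0.957, 1.11, 0.961 and 0.972 in Ctrl, 0.85, 0.769, 0.847, 0.895 and 0.951 in OVA and 1.17, 1.42, 1.46, 1.09 and 1.59 in EAE mice of day 14. Every OVA mouse was below every mouse of both other groups, and EAE and Ctrl overlapped. The log2 difference was 0.63 for EAE against OVA and -0.31 for OVA against Ctrl (exact permutation p = 0.00794 in each, adjusted p = 0.0476). Without Ctrl mouse 1, whose balance of long and short transcripts was farthest from 0 and whose ratio was the highest of Ctrl, the latter was -0.21, and with medians in place of means it was -0.19. For IDH3B/IDH3A the log2 differences were 0.26 for EAE against Ctrl and 0.33 for EAE against OVA, neither past the threshold (exact permutation, adjusted p = 0.122 and 0.114). On day 40 no ratio passed, and IDH2/IDH3A was 0.644 ± 0.176 in EAE and 0.622 ± 0.0813 in Ctrl (SD, n = 5 each). The 3 adjusted p-values under 0.05 were equal at 0.0476, and all 3 missed the threshold with medians, or without the 4 mice of unbalanced transcript length (adjusted p = 0.143 and 0.171).

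**Figure D3:**
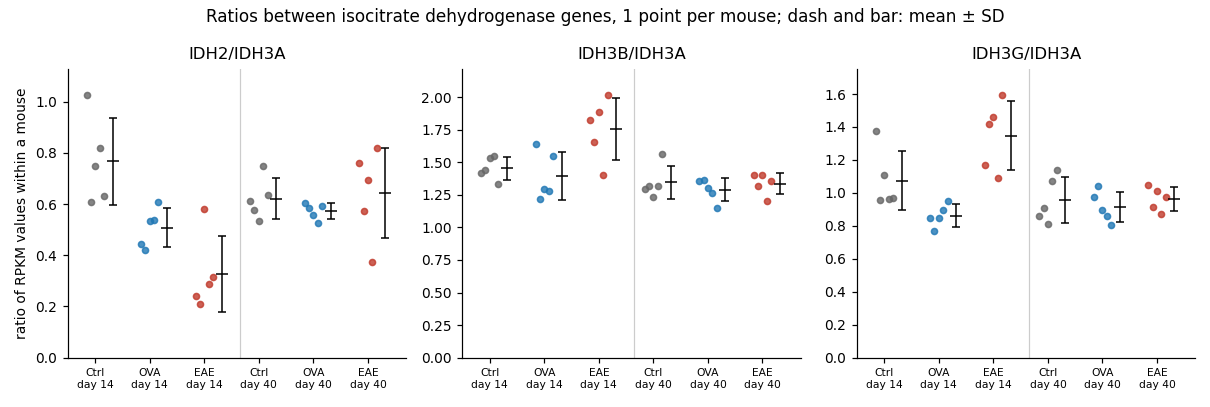
Ratio of RPKM values within each mouse (vertical axes, from 0) for IDH2, IDH3B and IDH3G, each over IDH3A, in the 6 groups of 5 mice, with the mean ± SD as a dash and bar. On day 14 IDH2/IDH3A averages 0.767 in Ctrl, 0.508 in OVA and 0.327 in EAE, and on day 40 the groups overlap in all 3 ratios.

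The order of the 9 genes by RPKM was set mostly by MDH2 at the top, the highest in every one of the 30 mice. IDH3B ranked 2 or 3 in every mouse and CS 2 to 6. IDH2 was the lowest of the 9 in 5 of 5 EAE mice of day 14 but in none of the Ctrl mice of that day, where it ranked 6 to 8. In the other 4 groups the last place was held by IDH2 or OGDH, depending on the mouse. The coefficient of variation between mice of a group reached 43.4% for IDH2 in EAE on day 14, the widest of all. Over the 6 groups it was widest in a group of day 14 for each of the 9 genes, in EAE for 3, in OVA for 3 and in Ctrl for 3, and in OVA on day 40 it was 2.19% to 6.98%.

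Because IDH2 and MDH2 were the only 2 of the 9 called against both control groups on day 14, the 250 bases before the start of each (RefSeq, GRCm38.p6) are shown 5′ to 3′ on the strand of the gene, IDH2 from the minus strand at chr7:80115351-80115600 and MDH2 from the plus strand at chr5:135778399-135778648. The start of IDH2 in the RefSeq promoter table lies 3258 bases inside the 5′ end of the RefSeq gene span given above, so the IDH2 window is upstream of that inner start and not of the outermost one, whereas the start of MDH2 is the end of its span. Capitals mark matches, on either strand, to CCAAT (the CCAAT box), GGGCGG (the GC box) and TGACGTCA (the cyclic AMP response element, the same on both strands).
IDH2: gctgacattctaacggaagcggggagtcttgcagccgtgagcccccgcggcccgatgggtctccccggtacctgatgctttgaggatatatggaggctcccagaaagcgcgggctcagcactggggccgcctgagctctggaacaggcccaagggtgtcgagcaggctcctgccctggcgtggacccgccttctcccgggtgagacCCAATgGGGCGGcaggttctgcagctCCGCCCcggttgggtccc
MDH2: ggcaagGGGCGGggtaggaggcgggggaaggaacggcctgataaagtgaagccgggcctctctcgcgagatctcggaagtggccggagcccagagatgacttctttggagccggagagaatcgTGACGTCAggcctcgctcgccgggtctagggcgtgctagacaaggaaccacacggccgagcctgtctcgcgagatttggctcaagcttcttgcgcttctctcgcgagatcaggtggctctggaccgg
The IDH2 window held a CCAAT box 44 to 40 bases before the start, a GC box 38 to 33 bases before it and a GC box on the opposite strand 18 to 13 bases before it. The MDH2 window held a GC box 244 to 239 bases and a cyclic AMP response element 127 to 120 bases before the start. Of 32851 promoter windows of the same length, 33.8% held CCAAT, 32.7% GGGCGG and 1.55% TGACGTCA. Of the 9 genes, 8 had at least 1 window: 5 of 8 held CCAAT, 5 of 8 GGGCGG and 2 of 8, MDH2 and OGDH, TGACGTCA. A gene was counted if any of its windows matched, whereas the shares over all promoters are per window. OGDH had several windows, and not all of them held GGGCGG or TGACGTCA, so its counts are not on the same footing as the shares. The half-site of estrogen-related receptors, AAGGTCA, was in the window of none of the 8 and in 4.08% of all windows, and CCGGAAG, the core bound by ETS factors, was in that of 1 of 8, IDH3G, and in 6.91% of all. No matched sites overlapped, and these are descriptions of letters, not of binding.

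Among other genes of the cycle, those called lower with EAE on day 14 were subunits of succinate dehydrogenase, which is also respiratory complex II. Of 7 tested, 2 were called lower and 0 higher against Ctrl, SDHB at -1.02 (SE 0.14, limma adjusted p = 5.65e-05) and SDHC at -0.78 (SE 0.14, limma adjusted p = 0.000351). SDHB averaged 619 ± 73.7 RPKM in Ctrl, 619 ± 129 RPKM in OVA and 305 ± 37.9 RPKM in EAE (SD, n = 5 each). Against OVA 3 of 7 were called lower, SDHA (-0.72) with these. The background called lower was 11.8% of all genes against Ctrl and 9.28% against OVA. The median log2 fold change of the 7 was -0.43 against Ctrl and -0.58 against OVA. SDHD was listed under 1 RPKM in every group mean and was not tested, and its value is uncertain, because reads shared with near-identical copies of a gene can be lost in counting and this was not tested.

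Of the cytosolic counterparts of MDH2 and IDH2, MDH1 fell with EAE and IDH1 did not pass the test. MDH1, the cytosolic malate dehydrogenase, averaged 448 ± 46.5 RPKM in Ctrl, 517 ± 60.7 RPKM in OVA and 213 ± 34.0 RPKM in EAE on day 14 (SD, n = 5 each). It was called lower at -1.08 against Ctrl and -1.28 against OVA (SE 0.13 in each, limma adjusted p = 1.23e-05 and 4.05e-06). IDH1, the cytosolic NADP-linked isocitrate dehydrogenase, averaged 20.9 ± 1.27, 20.5 ± 1.75 and 21.1 ± 1.46 RPKM in the same order, and its log2 fold change against Ctrl of 0.02 had an interval of -0.17 to 0.20. The list of 6 tested genes that holds these counterparts also holds assembly factors of succinate dehydrogenase, SDHAF1, SDHAF2 and SDHAF4. MDH1 was the only 1 of the 6 that was called in either comparison. As background, 11.8% of all genes were called lower against Ctrl and 9.28% against OVA.

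For the entry of pyruvate into the cycle, 1 of 11 tested genes was called lower against Ctrl, MPC2 of the mitochondrial pyruvate carrier (-0.79, SE 0.19, limma adjusted p = 0.00329). Against OVA 2 of 11 were, MPC2 and DLAT, a component of pyruvate dehydrogenase (-0.72, SE 0.11), and the median of the 11 was -0.04 against Ctrl and -0.27 against OVA. Over all genes 11.8% were called lower against Ctrl and 9.28% against OVA. Among genes of anaplerosis and shuttles, 2 of 13 were called higher and 5 of 13 lower against Ctrl, where 14.6% of all genes were called higher. Those higher were PCX, pyruvate carboxylase, which makes oxaloacetate from pyruvate (1.19, SE 0.12, limma adjusted p = 4.31e-06), and ME1, the cytosolic malic enzyme (0.71, SE 0.11, limma adjusted p = 0.000178), and both were also called higher against OVA (1.05 and 0.86). Those lower were PCK2, SLC25A11, SLC25A1, ME3 and GOT1, from -0.99 to -0.59. Of these, SLC25A11, the 2-oxoglutarate carrier, ME3 and GOT1 were also called against OVA, where 2 of 12 were called higher, beside 11.0% of all genes, and 3 of 12 lower.

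**Figure D4:**
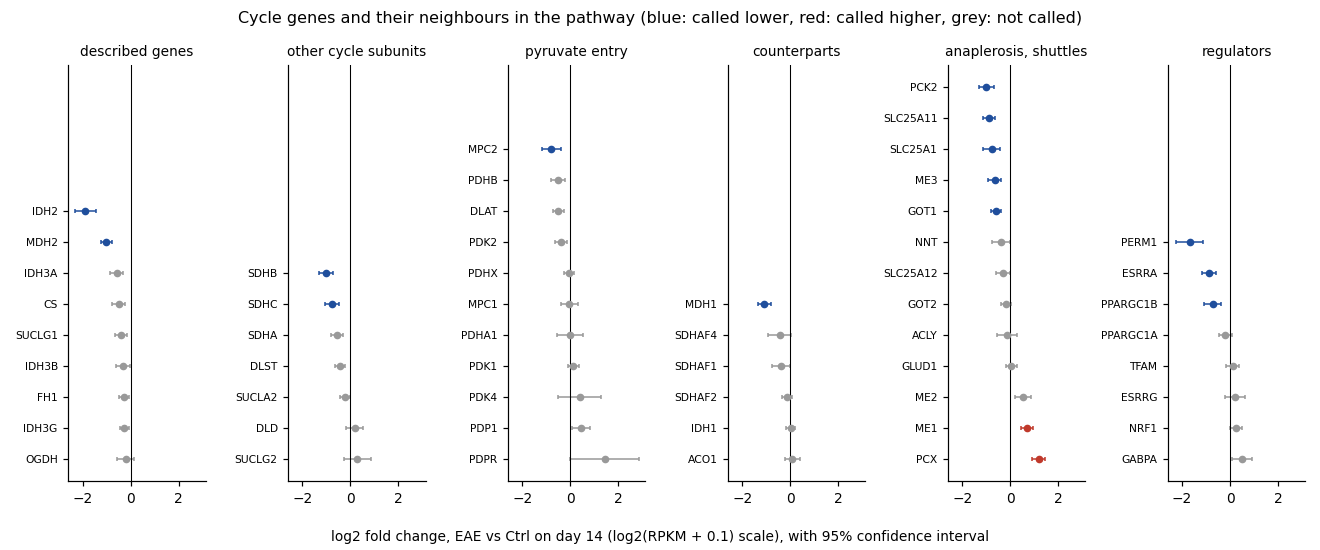
Log2 fold change of EAE against Ctrl on day 14, with 95% confidence intervals on the log2(RPKM + 0.1) scale, for the 9 genes (first panel) and for lists of other cycle subunits, pyruvate entry, counterparts, anaplerosis and shuttles, and regulators, each panel ordered by value. Genes called lower are blue, genes called higher red and the others grey, and PCX (1.19) and ME1 (0.71) are the only red points.

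Of 8 tested regulators of oxidative genes, 3 were called lower against both controls and 0 higher: PERM1, a muscle regulator induced by PGC-1 and estrogen-related receptors, ESRRA, the estrogen-related receptor alpha, and PPARGC1B, the coactivator PGC-1 beta. PERM1 averaged 75.4 ± 9.12 RPKM in Ctrl, 103 ± 20.0 RPKM in OVA and 25.7 ± 12.5 RPKM in EAE (SD over 5 mice), which on the log2 scale was a difference from Ctrl of -1.69 (SE 0.27, limma adjusted p = 0.000157). ESRRA was at -0.88 and PPARGC1B at -0.73 (limma adjusted p = 0.000112 and 0.00221). PPARGC1A, the coactivator PGC-1 alpha, was at -0.20, with an interval of -0.48 to 0.08. Of the 8 regulators, 4 were above 0 against Ctrl. For GABPA (0.50, limma adjusted p = 0.0395) and NRF1 (0.24, limma adjusted p = 0.0859) every EAE mouse was above every Ctrl mouse (background 21.2% of 8771 genes). Both were under the fold limit. Shares of all genes called lower were 11.8% against Ctrl and 9.28% against OVA. In OVA against Ctrl on day 14 and in the 3 comparisons of day 40, 0 genes of these 5 pathway lists were called (limma). The order below is OVA against Ctrl on day 14, then EAE against Ctrl, EAE against OVA and OVA against Ctrl on day 40. Of all genes 0.142%, 0.460%, 0.209% and 0.00% were called. At an unadjusted p under 0.05 (limma) were 8 of 43, 15 of 44, 5 of 43 and 1 of 44 tested list genes. The counts over all genes were 821 of 8471, 2423 of 8691, 1500 of 8598 and 272 of 8706.

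The genes whose profile over the 30 mice lay nearest to 3 of the 9 were found by the root mean square difference of centred log2 values among 9049 genes. For CS, genes among the 5 nearest were SDHA (0.0770), DLAT (0.114), MFN1 (0.117) and COQ8A (0.119), of which SDHA belongs to the cycle. For IDH3A they were ISCA1 (0.116), UQCRC2 (0.120), NDUFS1 (0.126), ADK (0.129) and DLAT (0.134), with UQCRC2 and NDUFS1 being subunits of the respiratory chain. For IDH2 they were NUPR1, SLC41A3, SERPINF1, LRRC14B and FAM57B, at 0.213 to 0.243, with none of the pathway lists among them, and IDH2 itself had an SD of 0.72 over the mice. These are likenesses over mice that share groups and scaling, given with no test.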

How the data were processed

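Per the labels and the study's methods, polyA RNA of each EDL muscle was sequenced, aligned to mm10 with Subread, counted on RefSeq transcripts with featureCounts and scaled to RPKM by the authors. The deposited values are on a log2 scale: read as log2(RPKM + 1), RPKM times exon length summed to 1.07 to 1.08 times the library total, near the 1 it must reach, but to 0.116 to 0.137 when read as RPKM. They were turned back to RPKM, and depth was estimated from the steps between low values, since 75.7% of 35283 values under 5.5 reads were whole within 0.1. In the 60 pairs of mice within a group, the squared difference averaged at least 9.94 times the variance from read sampling. For 27 gene symbols that had become dates, the name was restored from the gene identifier.

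log2(RPKM + 0.1) was tested with limma 3.58.1 (trend) in R 4.3.3, each day's 15 mice in a single model, over genes whose mean exceeded 3 RPKM in 1 or more of the groups compared. The change between days used all 30 mice. Groups come from the sample titles. Ratios were tested with two-sided exact permutation tests (scipy 1.17.1), adjusted over 18. The scripts were tested on simulated data. Alternatives were a pseudocount of 1, no filter, median-of-ratios scaling, quantile normalization, no fold limit, a replicate block, other sample sets and leaving out each mouse; a correction for transcript length and leaving out the 4 mice of unbalanced length were chosen after seeing the data. The genes named are the 9, those of the lists, and the 5 nearest profiles of IDH2, IDH3A and CS. A gene of these lists and profiles is not reported here. The 9 genes and all lists were chosen with earlier results of these data known.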

Additional observations from a re-analysis of the deposited data

Results flagged for a closer look

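Of 72 sets of 5 mice (9 genes and 3 ratios in 6 groups), 3 had 1 mouse set apart from the others by Dixon's 95% criterion, which chance gives in about 1 of 20. OGDH was at 105 RPKM in EAE mouse 1 of day 14, with the other 4 at 165.0 to 174 RPKM. IDH2/IDH3A was 0.580 in EAE mouse 3 of day 14, with the other 4 at 0.208 to 0.314. IDH3B/IDH3A was 1.56 in Ctrl mouse 5 of day 40, with the other 4 at 1.24 to 1.32.

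The effect of EAE differed between day 40 and day 14 by the test of the difference itself (limma, adjusted p below 0.05 and fold above 1.5) for 4 genes against Ctrl: IDH2 by 2.00, MDH2 by 1.24, IDH3A by 0.69 and SUCLG1 by 0.59 on the log2 scale. Against OVA it differed for 6 genes: IDH2 by 1.88, MDH2 by 1.17, IDH3A by 1.04, IDH3B by 0.76, SUCLG1 by 0.71 and CS by 0.61. Both sets share the EAE mice.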

How the results depend on the processing

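The number of the 9 genes called kept within 1.5 times its reported value except as follows. With no fold limit it was 7 in place of 2 for EAE against Ctrl on day 14, 8 in place of 5 for EAE against OVA, and 8 in place of 4 for the change between days against Ctrl. With quantile normalization it was 3 in place of 5 for EAE against OVA on day 14 and 2 in place of 4 for the change against Ctrl. Leaving out 1 mouse gave 2 to 3 genes for EAE against Ctrl and 4 to 5 for EAE against OVA on day 14, 3 to 4 and 5 to 6 for the changes between days, and 0 in the other 4 comparisons. IDH2 and MDH2 were called lower on day 14 against both controls in every alternative run. Median-of-ratios scaling moved the median of all genes in the change against Ctrl from -0.15 to -0.05, and quantile normalization moved it to -0.01, while the median of the 9 was 0.56, 0.66 and 0.38.

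With medians in place of means the ratio differences that had passed missed the threshold, at -1.38 for IDH2/IDH3A in EAE against Ctrl, 0.74 for IDH3G/IDH3A in EAE against OVA and -0.19 for it in OVA against Ctrl on day 14. Without the 4 mice of unbalanced transcript length they were -1.05, 0.61 and -0.21 and also missed it. Leaving out 1 mouse they ranged from -1.53 to -1.16, from 0.57 to 0.70 and from -0.34 to -0.21, and missed the threshold in 28 of 30 cases. With 4 against 5 mice no exact permutation p is below 0.0159, and whether that value passes after adjustment depends on the other p-values among the 18 tests. IDH3B/IDH3A ranged from 0.21 to 0.34 in EAE against Ctrl and from 0.28 to 0.41 in EAE against OVA, and passed without EAE mouse 4.

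Most mice of the same replicate number did not deviate together, since the correlation of same-numbered mice was -0.71 to 0.69 on day 14 (median 0.06) and -0.53 to 0.18 on day 40 (median -0.14). For number 1 of day 14 the 3 pairs correlated at 0.50 to 0.69, and the balance of long and short transcripts was below 0 in all 3 mice (-0.78, -0.62 and -0.28). Mice of different numbers on day 14 ranged from -0.73 to 0.74, so values of this size also occurred between them. With a replicate block 2 genes were called for EAE against Ctrl and 5 for EAE against OVA on day 14, 4 and 6 for the changes between days, and 0 in the others, as without it.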
